A study of Homo sapiens with 30 samples.

Results

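The 10 genes described here are ATF4 and a set of genes of the integrated stress response: the transcription factors ATF4, ATF5, DDIT3, CEBPB and CEBPG, and the effectors TRIB3, CHAC1, ASNS, STC2 and PPP1R15A. They were taken by gene symbol from a table of 58735 genes, and all 10 were among the 18296 genes with enough counts to test. RNA was sequenced from LNCaP, an established androgen-dependent human prostate cancer cell line. All 5 lines carried a short hairpin RNA against mTOR, a kinase that couples growth to nutrients. They differed in what an inducible system expressed. The EV line held the empty vector and the WT line wild-type mTOR. In the NES line the rescue mTOR bore a nuclear export signal, in the NLS line a nuclear localization signal, and in the NLSKD line that signal together with the kinase-dead D2357E change. Each line was deprived of androgen for 48 h in RPMI with 2% charcoal-stripped serum and then kept for 24 h in vehicle (0.1% ethanol) or in 10 nM R1881, a synthetic androgen. This gave 10 groups of 3 libraries, 30 in all. The labels do not say whether a line was 1 clone or whether the triplicates were separate cultures, so each p-value measures the spread between these libraries, which may be technical.

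The integrated stress response is a signalling route in which sensor kinases (PERK, GCN2, PKR and HRI) phosphorylate the translation factor eIF2. Most protein synthesis then slows while a few messages with upstream open reading frames, ATF4 among them, are translated more. ATF4 is a bZIP transcription factor that pairs with C/EBP proteins and switches on genes for amino acid supply, redox balance and feedback. The mTOR complex mTORC1 is known to raise ATF4 protein through translation and message stability, apart from eIF2. RNA levels, as measured here, do not report ATF4 protein or eIF2 phosphorylation.

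ATF4 and C/EBP proteins bind a composite site, and CREB and ATF factors a palindromic one, and promoters were searched for both because the members share these regulators. The windows were the RefSeq promoters of build GRCh38.p14, from 250 bases before to 50 after a start, and all 10 members matched, with 19 windows. The composite site was searched as TGATGNAA and the palindromic site as TGACGTCA, on both strands. A composite site was found in windows of 3 members (CEBPG, CHAC1 and ASNS) and a palindromic site in 1 (PPP1R15A). Of 35116 promoters of the same length, 3.617% held the composite site and 1.848% the palindromic one. The 30 bases around each match are shown, with the match in capitals.
CEBPG (chr19:33374060-33374089, plus strand): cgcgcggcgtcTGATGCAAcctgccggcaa
CHAC1 (chr15:40953251-40953280, plus strand): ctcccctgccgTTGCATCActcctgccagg
ASNS (chr7:97872458-97872487, minus strand): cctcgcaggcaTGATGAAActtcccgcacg
PPP1R15A (chr19:48872352-48872381, plus strand): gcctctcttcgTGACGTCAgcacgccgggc
The CHAC1 match lies on the opposite strand to the gene. The CHAC1 and ASNS stretches fall within exons of GENCODE release 29 and the other 2 do not. The unfolded protein response element, searched as CCAAT and CCACG with 9 free bases between them on both strands, was in no member's window and in 0.07689% of all promoters. No searched letters were found in the windows of TRIB3, the member whose level differed in the most comparisons. A match is a description of these letters and no evidence of binding.

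Libraries held 21435364 to 61762468 counts, and the share from mitochondrially encoded genes ran from 3.90% to 11.7%. It was over 9% in 5 libraries, which were replicate 2 of NLS in both treatments, of NLSKD under vehicle and of NES under R1881, and replicate 3 of EV under vehicle. Under vehicle MTOR (ENSG00000198793) was at 25.7 ± 4.86 CPM in EV (TMM-normalised counts scaled to library size; SD, n = 3 here and for the other lines). It was at 1840 ± 276 CPM in WT and 5252 ± 2028 in NES, and lower than both in NLS (930 ± 290) and NLSKD (1016 ± 426). These counts do not separate the rescue message from the cells' own, and no line without the hairpin was analysed here to check the knockdown. The 7 luminal markers were present in every library (summed level 1762 to 9638 CPM). Of the other lists, the 3 basal markers summed to at most 2.85 CPM, the 4 neuroendocrine to 3.33, the 3 leukocyte to 0.287 and the 4 fibroblast to 22.5, most of it COL1A1. COL1A2 and CD3E were at 0 in all 30 libraries.

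Levels can be compared between genes only per length, for which the deposited FPKM (fragments scaled by gene length and library size) was used. By mean FPKM, ATF4 (ENSG00000128272, hg38 chromosome 22, 39519695 to 39522685) was above 99.3% of tested genes. It was the most abundant member, with a median of 195 FPKM over the 30 libraries. TRIB3 followed at 49.99 FPKM, CEBPB at 34.7, CEBPG at 32.6, ATF5 at 21.5, STC2 at 20.1, DDIT3 at 16.7 and CHAC1 at 11.6. ASNS, at 2.82 FPKM, and PPP1R15A, at 1.41, were the lowest. Some counts are uncertain, because the sources used here give neither the strand setting of the counting nor its handling of reads with several matches. DDIT3 shares 27.2% of its exonic bases with MARS on the opposite strand, which held 191916 counts over all libraries against 19521 for DDIT3. ATF5 shares 21.2% with NUP62, also on the opposite strand. ASNS shares 44.6% of its exonic bases with AC079781.5, a processed transcript on the same strand that no strand setting would separate, and which held 289 counts against 10024 for ASNS. ASNS and ATF4 have processed pseudogenes with counts of their own, ASNSP1 with 6268 and ATF4P3 with 463 over all libraries.

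**Figure D1:**
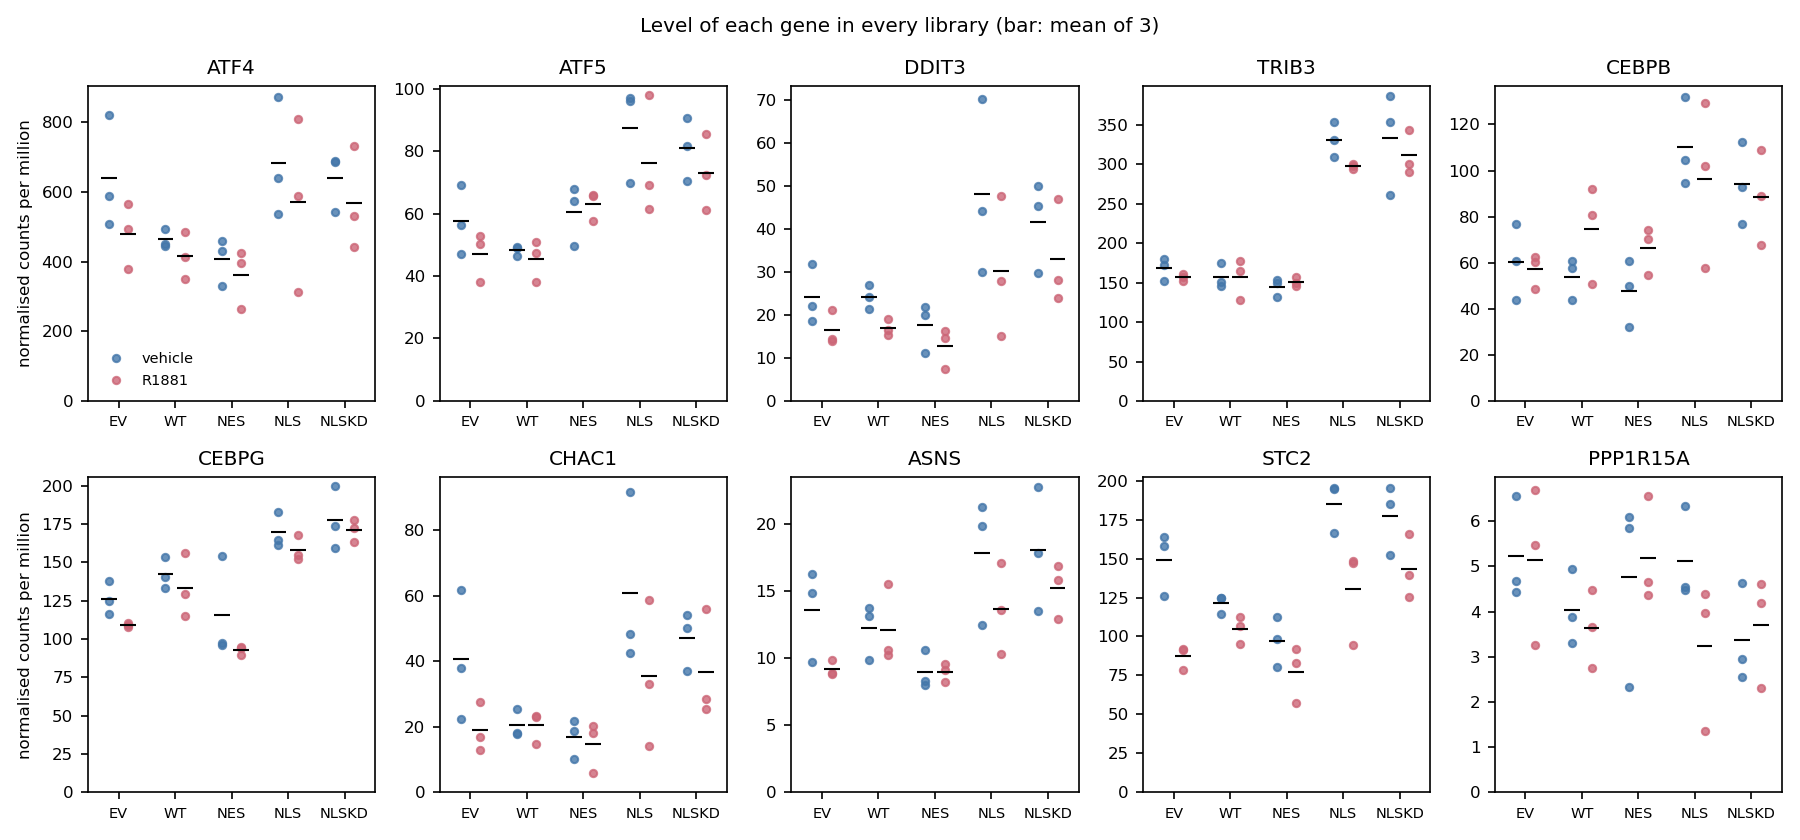
Normalised CPM of the 10 genes (linear vertical axes from 0) in each of the 30 libraries, by line and treatment. Points are libraries and bars are means of 3. TRIB3 in NLS and NLSKD lies at 261 to 387 CPM, above its 128 to 180.3 CPM in the other 3 lines.

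TRIB3 (ENSG00000101255, chromosome 20, 362835 to 397559) encodes a pseudokinase that is induced by ATF4 and DDIT3 and acts back on them and on AKT. Its level in both nuclear lines was 1.89 to 1.98 times that in EV. Under vehicle it was at 354, 331 and 309 CPM in NLS and 387, 354 and 261 CPM in NLSKD (replicates 1, 2 and 3). In the other lines under vehicle it was at 180.3, 172 and 152 CPM in EV, 175, 150.4 and 146 in WT, and 132, 153 and 149 in NES. All 6 nuclear libraries were above all 9 others. Under R1881 the nuclear values were 299, 301 and 294 CPM in NLS and 344, 299.9 and 290.4 in NLSKD. The others under R1881 were at 161, 158 and 153 CPM in EV, 128, 164 and 178 in WT, and 149, 146 and 157 in NES. Again the 6 nuclear libraries stood above the other 9 with no overlap. In edgeR's quasi-likelihood test with Benjamini-Hochberg adjustment over all 18296 genes (called at an adjusted p under 0.05), TRIB3 was called higher in all 12 comparisons of NLS or NLSKD with EV, WT or NES. These comparisons share libraries and are not independent. In bulk RNA, more cells that express a gene and more of its RNA per cell cannot be told apart.

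Against EV, the TRIB3 log2 fold change was 0.98 ± 0.15 (SE) in NLS (adjusted p = 7.08e-05) and 0.99 ± 0.15 in NLSKD (7.05e-05) under vehicle. Under R1881 it was 0.92 ± 0.14 (0.000131) and 0.99 ± 0.15 (7.16e-05), by the same edgeR test. NLS and NLSKD held the top places in both treatments, and EV, WT and NES followed in that order with no call between neighbours. The log2 difference between NLS and NLSKD was -0.01 under vehicle (95% interval -0.29 to 0.27) and -0.06 under R1881 (-0.35 to 0.22). The TRIB3 calls held without any single library of the compared groups. They were lost in 5 of the 12 comparisons when only the 6 libraries compared were fitted (adjusted p from 0.0616 to 0.651), with log2 fold changes of 0.92 to 1.21.

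Against EV, which rescue lines differed was asked in each treatment for all 10 genes, and each comparison below shares the EV libraries of its treatment. In WT no member was called by edgeR under vehicle (6.67% of all tested genes were called) or under R1881 (8.43%). Under vehicle 1 member, CHAC1, had an unadjusted p under 0.05, and under R1881 none did. DESeq2 called none in either treatment. In NES no member was called under vehicle (4.92% of genes) or R1881 (6.86%). Under vehicle 4 members (ATF4, CHAC1, ASNS and STC2), all lower in NES, had an unadjusted p under 0.05. STC2 was nearest, at 80.6, 98.3 and 113 CPM in NES against 158, 164 and 126 in EV. Its log2 fold change was -0.62 ± 0.19 with edgeR (adjusted p = 0.0539), and DESeq2 called it (adjusted p = 0.0194). Under R1881 1 member, ATF5, had an unadjusted p under 0.05 in NES, and DESeq2 called none.

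Under vehicle TRIB3 was the 1 member called in NLS against EV (4.50% of genes called) and the 1 called in NLSKD (3.99%). ATF5, CEBPB, CEBPG and DDIT3 had positive estimates in both nuclear lines and did not pass the test. CEBPB, a C/EBP factor that pairs with ATF4, was at 105, 132 and 94.5 CPM in NLS and 60.6, 76.7 and 43.8 in EV, with a log2 fold change of 0.87 ± 0.28 (edgeR adjusted p = 0.0858). ATF5, a bZIP relative whose message is also read through upstream frames, was at 96.1, 97.0 and 69.6 CPM in NLS and 56.3, 69.3 and 47.0 in EV (0.61 ± 0.20, adjusted p = 0.0827). NLS and EV libraries of CEBPB and of ATF5 did not overlap. For NLS against EV the replicate numbers paired the libraries, and a fit with a replicate block called 5 members: TRIB3, ATF5 (adjusted p = 0.0168), CEBPB (0.0137), CEBPG (0.0456) and DDIT3 (0.0222). The block was a single replicate effect shared by all 10 groups, including groups whose numbers did not pair. The share of all genes called with the block was not computed, here or for the comparisons below. The percentages given are from the fit without it. The median log2 fold change of the 10 members was 0.50 in NLS and 0.45 in NLSKD, beside -0.01 and -0.02 over all tested genes.

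Under R1881 3 members were called higher in each nuclear line against EV: TRIB3, ATF5 and CEBPG in NLS (6.17% of genes called) and TRIB3, CEBPG and STC2 in NLSKD (5.66%). CEBPG (ENSG00000153879, chromosome 19, 33373330 to 33382686), a C/EBP factor without an activation domain that forms dimers with ATF4, was at 168, 152 and 154 CPM in NLS and 173, 163 and 178 in NLSKD. In EV it was at 109, 108 and 110.4 CPM, below every nuclear library. Its log2 fold change was 0.53 ± 0.16 in NLS (edgeR adjusted p = 0.0369) and 0.65 ± 0.16 in NLSKD (0.0106). The NLS call was lost without any 1 of the 6 libraries: EV 1 (edgeR adjusted p = 0.104), EV 2 (0.101), EV 3 (0.0991), NLS 1 (0.0940), NLS 2 (0.0547) or NLS 3 (0.119). The NLSKD call was lost without NLSKD 1 (0.0525) or NLSKD 3 (0.0713).

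ATF5 (ENSG00000169136, chromosome 19, 49928702 to 49933935) was at 61.5, 97.9 and 69.1 CPM in NLS and 38.2, 52.7 and 50.3 in EV under R1881. The groups did not overlap, and replicate 2 was the highest of each. The log2 fold change was 0.69 ± 0.20 (edgeR adjusted p = 0.0312), and the call was lost without EV 1 (0.178), EV 3 (0.0654) or NLS 2 (0.203). NUP62, which overlaps ATF5, had a log2 fold change of 0.11 ± 0.15 in the same comparison. STC2 (ENSG00000113739, chromosome 5, 173314713 to 173329503), a secreted glycoprotein induced in ER stress, was at 125, 166 and 139 CPM in NLSKD and 78.3, 92.1 and 91.4 in EV. All NLSKD libraries were above all EV libraries, with a log2 fold change of 0.72 ± 0.19 (adjusted p = 0.0193). That call was lost without EV 1 (0.100), EV 3 (0.0516) or NLSKD 2 (0.104).

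The replicate numbers also paired the libraries of both nuclear lines with EV under R1881, and with the block 6 members were called in each. In NLS these were TRIB3, ATF5, CEBPG, ASNS (adjusted p = 0.0390), CEBPB (0.0403) and STC2 (0.0253). In NLSKD they were TRIB3, CEBPG, STC2, ASNS (0.00607), ATF5 (0.0122) and DDIT3 (0.0198). No share of all genes called with the block stands beside these counts. The median log2 fold change of the 10 members under R1881 was 0.64 in NLS and 0.68 in NLSKD, beside 0.04 and 0.02 over all genes tested. PPP1R15A, the regulatory subunit that directs a phosphatase to eIF2, was the 1 member below EV in both nuclear lines under R1881 (log2 fold changes of -0.68 ± 0.39 and -0.48 ± 0.39, neither called). The group mean share of mitochondrial counts was 7.50% in NLS, 7.18% in NLSKD and 6.51% in EV under R1881, and 7.81%, 8.45% and 7.17% under vehicle. Without the 5 libraries over 9% the calls of ATF5 (adjusted p = 0.198) and CEBPG (0.0631) in NLS under R1881 were lost.

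**Figure D2:**
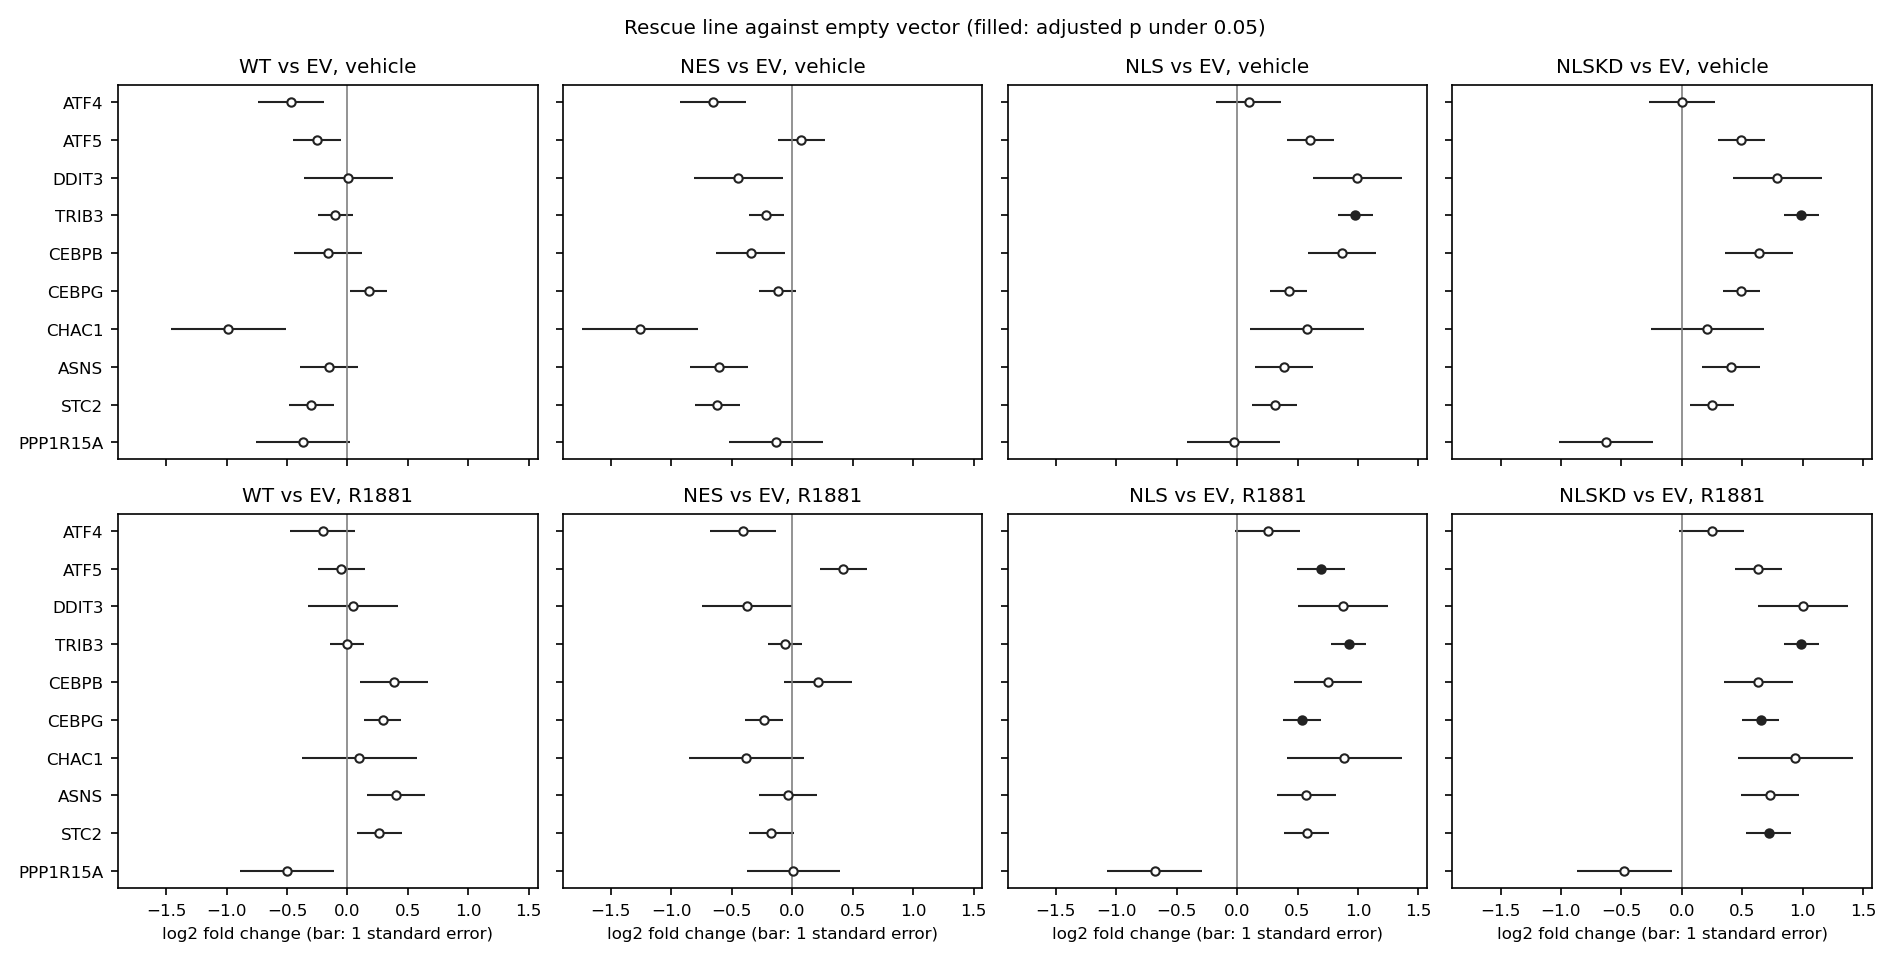
Log2 fold change of each gene in a rescue line against EV (horizontal axis, bars of 1 standard error) under vehicle (top) and R1881 (bottom), with filled points for an adjusted p under 0.05. TRIB3 is filled in all 4 nuclear panels, at 0.92 to 0.99, and no point is filled in the WT and NES panels.

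Comparisons between rescue lines asked whether the members differed with the localisation signal that the rescue mTOR carried. No member was called between NES and WT by edgeR under vehicle (1.19% of genes called) or R1881 (1.4%). No member had an unadjusted p under 0.05 under vehicle, and 3 did under R1881 (ATF5, CEBPG and STC2). DESeq2 called none under vehicle and CEBPG under R1881, at 94.8, 93.8 and 89.5 CPM in NES and 156, 115 and 129 in WT (DESeq2 adjusted p = 0.0392, edgeR 0.110).

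NLS against WT called TRIB3 and ATF5 under vehicle (0.476% of genes) and TRIB3 under R1881 (0.454%). TRIB3 had log2 fold changes of 1.08 ± 0.15 (edgeR adjusted p = 0.000153) and 0.93 ± 0.14 (0.00108). ATF5 under vehicle was at 49.3, 49.1 and 46.5 CPM in WT, below its 69.6 to 97.0 in NLS. Its log2 fold change was 0.86 ± 0.20 (adjusted p = 0.0437), beside 0.06 ± 0.15 for NUP62. The ATF5 call was lost without WT 1 (0.153), WT 2 (0.114), WT 3 (0.180), NLS 1 (0.172) or NLS 2 (0.207), and without the libraries over 9% mitochondrial counts (0.159). Under R1881 the numbers paired NLS with WT, and with the block 2 members were called, TRIB3 and ATF5 (adjusted p = 0.0217). In NLSKD against WT, a comparison added after the results were seen, TRIB3 alone was called under vehicle (0.836% of genes) and under R1881 (0.847%), at 1.09 ± 0.15 and 0.99 ± 0.15.

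NLS against NES gave the most calls among the planned comparisons, 4 members under vehicle (1.01% of genes) and 3 under R1881 (1.37%), all higher in NLS. Under vehicle TRIB3 was higher by 1.19 ± 0.15 on the log2 scale (edgeR adjusted p = 3.62e-05). STC2 was at 195, 195 and 166 CPM in NLS and 80.6, 98.3 and 113 in NES, with no overlap (0.93 ± 0.19, adjusted p = 0.00909). The STC2 call was lost without NES 1 (0.0515). CEBPB (ENSG00000172216, chromosome 20, 50190734 to 50192689) was at 31.9, 60.6 and 50.1 CPM in NES, below all 3 NLS libraries, with a log2 fold change of 1.21 ± 0.28 (adjusted p = 0.0317). It was lost without NES 1 (0.154), NES 3 (0.0822), NLS 1 (0.0747) or NLS 2 (0.17).

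ASNS (ENSG00000070669, chromosome 7, 97852118 to 97872542), which makes asparagine from aspartate, was the other gene called higher in NLS than NES under vehicle. It was at 19.8, 12.5 and 21.3 CPM in NLS and 7.99, 8.30 and 10.6 in NES. The log2 fold change was 0.99 ± 0.24 (edgeR adjusted p = 0.0401), and only the omission of NLS 2 kept the call. Without NES 1, 2 or 3 the adjusted p was 0.212, 0.175 and 0.0844, and without NLS 1 or 3 it was 0.234 and 0.218. Its counts were low, 188 to 585 per library.

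Under R1881 TRIB3, CEBPG and STC2 were called higher in NLS than NES. CEBPG was at 168, 152 and 154 CPM in NLS against 94.8, 93.8 and 89.5 in NES, a log2 fold change of 0.77 ± 0.16 (edgeR adjusted p = 0.00700). That call was lost without NES 3 (0.0921). STC2 was at 94.8, 147 and 149 CPM in NLS and 57.3, 83.0 and 91.8 in NES (0.75 ± 0.19, adjusted p = 0.0385). Its call was lost without NES 1 (0.175), NES 2 (0.0946), NLS 2 (0.147) or NLS 3 (0.131). The numbers paired NLS with NES under R1881, and with the block CHAC1 (adjusted p = 0.0407) and DDIT3 (0.0130) were called as well, 5 members in all. Without the 5 libraries over 9% mitochondrial counts the calls of CEBPB (adjusted p = 0.147) and STC2 (0.0551) under vehicle, and of CEBPG (0.0525) and STC2 (0.219) under R1881, were lost.

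NLSKD against NES, also added after the results were seen, called 4 members in each treatment, all higher in NLSKD (1.33% of genes under vehicle and 2.95% under R1881). TRIB3, CEBPG and STC2 were called in both. Under vehicle TRIB3 was higher by 1.20 ± 0.15 on the log2 scale, ASNS by 1.01 ± 0.24, STC2 by 0.87 ± 0.19 and CEBPG by 0.62 ± 0.16. Under R1881 CEBPG was higher by 0.89 ± 0.16 (edgeR adjusted p = 0.00102) and STC2 by 0.89 ± 0.19 (0.00576). DDIT3 (ENSG00000175197, chromosome 12, 57516588 to 57521737), the stress factor CHOP, was at 28.1, 47.0 and 23.9 CPM in NLSKD against 7.52, 14.6 and 16.2 in NES. Its log2 fold change was 1.38 ± 0.38 (adjusted p = 0.0419), and 0.36 ± 0.19 for the overlapping MARS. The DDIT3 call was lost without NES 1 (0.167), NES 2 (0.0921), NES 3 (0.0510) or NLSKD 2 (0.206). Under vehicle CEBPG was lost without NES 2 (0.406), NES 3 (0.423), NLSKD 1 (0.167), NLSKD 2 (0.253) or NLSKD 3 (0.0956), and STC2 without NLSKD 2 (0.0537). Without the libraries over 9% mitochondrial counts CEBPG (0.303) and STC2 (0.0602) were lost there. ASNS was lost without NES 1 (0.126), NES 2 (0.168), NES 3 (0.0603), NLSKD 1 (0.242) or NLSKD 3 (0.0888).

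**Figure D3:**
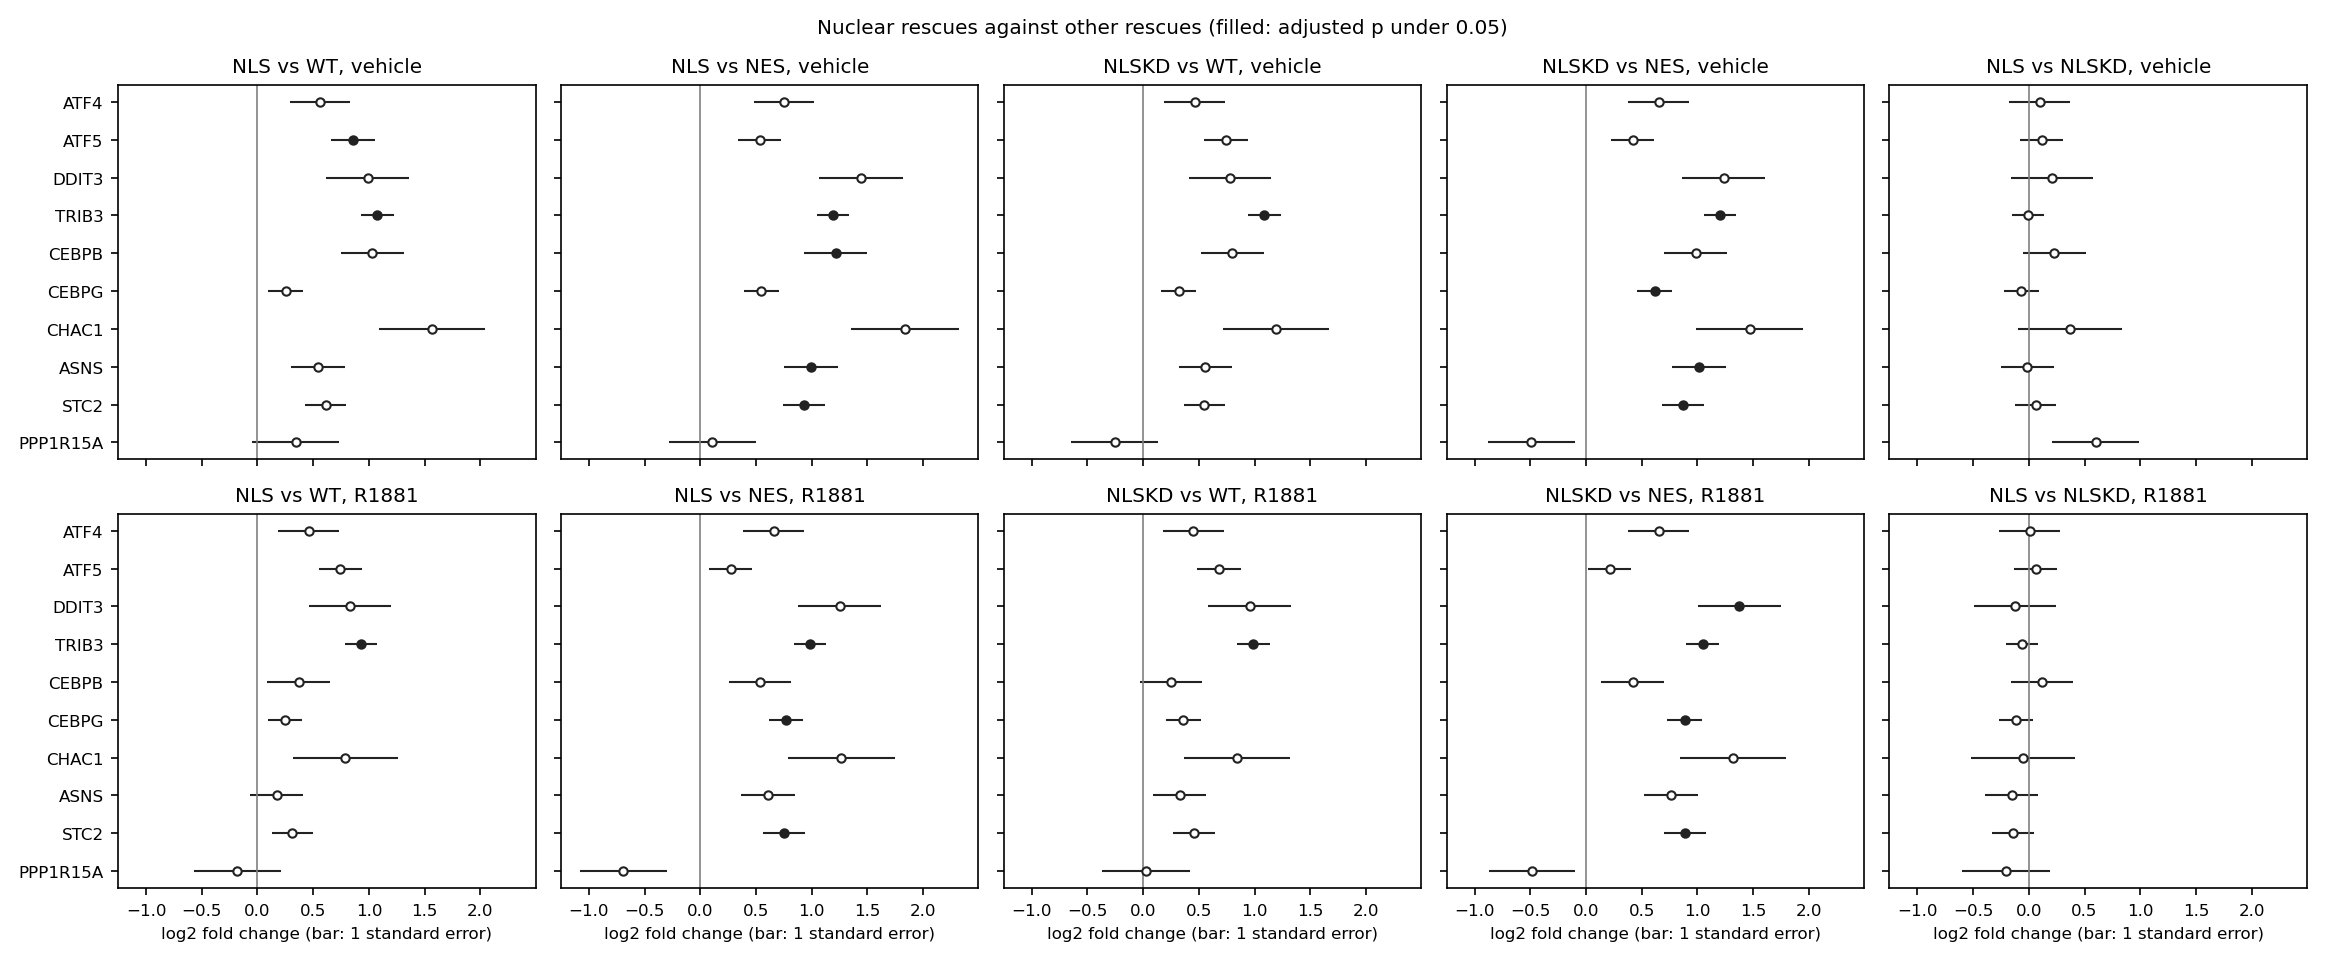
Log2 fold change of each gene between the nuclear rescues and WT, NES or each other (horizontal axis, bars of 1 standard error) under vehicle (top) and R1881 (bottom), with filled points for an adjusted p under 0.05. TRIB3 is filled in the 8 panels against WT and NES, and no point is filled between NLS and NLSKD.

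Of the 29 member calls in all comparisons, 20 were lost when only the libraries of the 2 compared groups were fitted, and none changed sign. With no filter on low counts 7 were lost: ATF5 and CEBPG in NLS, and CEBPG and STC2 in NLSKD, against EV under R1881, CEBPG and STC2 in NLS against NES under R1881, and CEBPG in NLSKD against NES under vehicle. DESeq2, limma on log2(FPKM + 1) and other size factors kept all 29.

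The kinase-dead change was tested by NLS against NLSKD. No member was called by edgeR under vehicle (0.0109% of genes) or R1881 (0.00547%), none had an unadjusted p under 0.05, and DESeq2 called none. The log2 differences ran from -0.07 to 0.60 under vehicle, the largest in PPP1R15A, and from -0.21 to 0.12 under R1881. Their 95% intervals reached from -0.55 to 1.36 under vehicle and from -0.98 to 0.87 under R1881 and so still allow differences of that size in single members. MTOR itself was at 930 ± 290 CPM in NLS and 1016 ± 426 in NLSKD under vehicle, below WT and NES. Whether this level has a part in the differences from WT and NES was not tested.

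ATF4 was not called in any of the 29 comparisons by edgeR without the replicate block. Under vehicle it was at 589, 821 and 509 CPM in EV, 446, 495 and 449 in WT and 329, 460.0 and 429 in NES. In the nuclear lines it was at 640.5, 873 and 536 CPM in NLS and 686, 688 and 543 in NLSKD. Nuclear libraries were above all NES and WT libraries under vehicle and overlapped EV. Under R1881 the values were 379, 565 and 494 CPM in EV, 349, 413 and 484 in WT and 263, 396 and 425 in NES. In the nuclear lines under R1881 they were 314, 809 and 589 CPM in NLS and 531, 732 and 441 in NLSKD, and both overlapped EV and WT. Against EV the log2 fold change was 0.10 ± 0.27 in NLS and -0.002 ± 0.27 in NLSKD under vehicle, and 0.25 ± 0.27 in both under R1881. Against NES under vehicle it was 0.75 ± 0.27 in NLS (edgeR adjusted p = 0.287) and 0.65 ± 0.27 in NLSKD (0.458). With the replicate block edgeR called ATF4 in 2 comparisons under vehicle, where the numbers did not pair the libraries. It was lower in NES than EV (-0.65, adjusted p = 0.0499) and higher in NLS than NES (0.75, adjusted p = 0.0438). By group mean the order was NLS, EV, NLSKD, WT and NES under vehicle and NLS, NLSKD, EV, WT and NES under R1881, and no 2 neighbours were called different.

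Over the 10 group means of log2 CPM, the pattern most like that of ATF4 was that of CARS (Pearson r = 0.99), a cysteinyl-tRNA synthetase. PIGZ (0.97), CHAC1 (0.97), PRSS1 (0.96) and MLXIPL (0.96) followed among 13488 protein-coding genes. Searched in the same way, CHAC1 was nearest to STC2 (0.97), another member, and ASNS to MARS (0.98), which is not a member. Among members ASNS was nearest to STC2 (0.96). The 9 members other than PPP1R15A had correlations between each other from 0.58 to 0.97 in 36 pairs. PPP1R15A correlated with the other 9 at -0.61 to -0.12. Groups share lines and treatments, and these values describe 10 points.

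Androgen lowered STC2 in EV and moved no other member past the test. STC2 was at 158, 164 and 126 CPM in EV under vehicle and 78.3, 92.1 and 91.4 under R1881, with no overlap. Its log2 fold change was -0.77 ± 0.19 (edgeR adjusted p = 0.00697), where 9.05% of genes were called, and the call held without any single library. All 10 members had negative estimates in EV, with a median log2 fold change of -0.35 beside -0.04 over all genes. The numbers paired these libraries, and with the block ASNS (-0.53, adjusted p = 0.0351) and CHAC1 (-1.11, adjusted p = 0.0189) were called too. CHAC1 (ENSG00000128965, chromosome 15, 40952962 to 40956519) degrades glutathione and was at 37.9, 61.9 and 22.4 CPM under vehicle and 12.9, 27.6 and 16.9 under R1881. ASNS was at 14.9, 9.73 and 16.2 CPM under vehicle and 9.85, 8.85 and 8.88 under R1881. MTOR itself differed between these groups, at 66.1 ± 9.54 CPM under R1881 (SD, n = 3; log2 fold change 1.36 ± 0.34, edgeR adjusted p = 0.00855), and its part in the STC2 difference was not tested.

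In the rescued lines no member was called for R1881 against vehicle by edgeR or by DESeq2: WT (6.45% of genes called), NES (8.15%), NLS (4.42%) and NLSKD (4.07%). An unadjusted p under 0.05 was seen for CEBPG in NES and for STC2 in NLS, and for no member in WT or NLSKD. STC2 in NLS was at 195, 195 and 166 CPM under vehicle and 94.8, 147 and 149 under R1881 (-0.51 ± 0.19, adjusted p = 0.158). The groups did not overlap. As in EV, all 10 members had negative estimates in NLS, with a median log2 fold change of -0.32 beside 0.02 over all genes. The median was -0.09 in WT, -0.08 in NES and -0.16 in NLSKD. The estimate was negative in all 5 lines for ATF4, CEBPG, CHAC1, DDIT3 and STC2. For DDIT3 it ran from -0.67 in NLS to -0.34 in NLSKD, with no call. For CEBPB it was positive in WT (0.46 ± 0.28) and NES (0.48 ± 0.28) and negative in the other 3 lines, again with no call.

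The difference of androgen responses from EV was tested as an interaction. No member was called in WT (0.0437% of genes called), NES (0%), NLS (0.0164%) or NLSKD (0.0164%), and DESeq2 called none. STC2 in WT against EV had the 1 unadjusted p under 0.05, with a difference of 0.56 ± 0.26 on the log2 scale (edgeR adjusted p = 0.9999). That STC2 was called in EV and not elsewhere is therefore not shown to be a difference between lines.

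**Figure D4:**
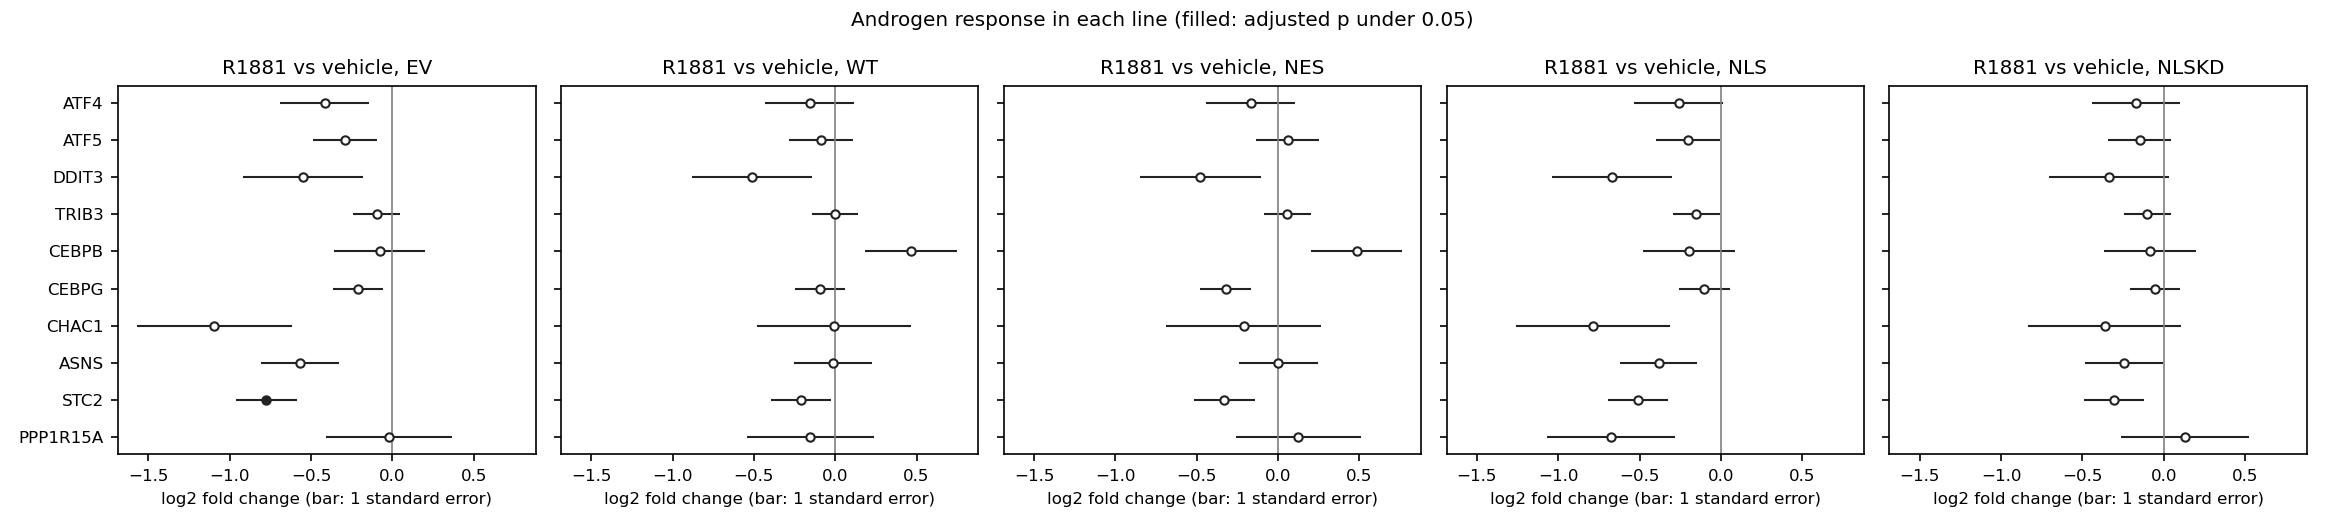
Log2 fold change of each gene with R1881 against vehicle in the 5 lines (horizontal axis, bars of 1 standard error), with filled points for an adjusted p under 0.05. STC2 in EV, at -0.77, is the 1 filled point.

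The members differed in how tightly replicates agreed. The median coefficient of variation over the 10 groups was 42.0% for CHAC1, larger than in 98.1% of the 11949 genes with a mean of at least 3 CPM. It was 30.5% for DDIT3, 28.2% for PPP1R15A, 21.8% for ATF4, 8.14% for TRIB3 and 6.98% for CEBPG, against a median of 18.3% over those genes. The widest group was NLS under R1881, where CHAC1 was at 14.2, 58.9 and 33.1 CPM and DDIT3 at 15.2, 47.8 and 28.0, while TRIB3 was at 299, 301 and 294. Replicate 1 of that group was also 1 of the 2 deepest libraries, with 39487706 counts. The deepest was NES replicate 1 under R1881, with 61762468 counts. It held the lowest ATF4 (263 CPM), DDIT3 (7.52), CHAC1 (5.94) and STC2 (57.3) of the 30 libraries. Without it the R1881 calls of DDIT3 in NLSKD against NES and of STC2 in NLS against NES were lost. The part of depth in these levels was not tested.

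The spread was shared between members. In 10 of 10 groups the library with the most ATF4 was also the one with the most DDIT3 and the most CHAC1, and it was replicate 2 in 8 groups. CEBPB followed in 9 groups and ATF5 in 8. ASNS went the other way, with its lowest level in replicate 2 in 9 groups, and CEBPG was lowest there in 8. The mitochondrial share was highest in replicate 2 in 6 groups and in replicate 3 in 4. The highest ATF4 library was the one with the highest mitochondrial share in 6 of 10 groups. The part of library quality in the spread of ATF4, DDIT3 and CHAC1 was not tested. Calls of CHAC1 depended on the fit. With the filter on low counts and no block, edgeR called it in no comparison, and its log2 fold change reached 1.84 ± 0.48 in NLS against NES under vehicle (adjusted p = 0.0678). With no filter edgeR called CHAC1 in 12 of 29 comparisons (adjusted p = 1.01e-10 in NLS against NES under vehicle), among them WT and NES against EV under vehicle, where it was lower (0.00153 and 2.21e-05). With the replicate block it was called in 8. DESeq2 called it in 2, NLS against NES and NLS against WT under vehicle, and so did fits of the compared groups only (NLS and NLSKD against WT under vehicle). The cause of the change with the filter was not tested.

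**Figure D5:**
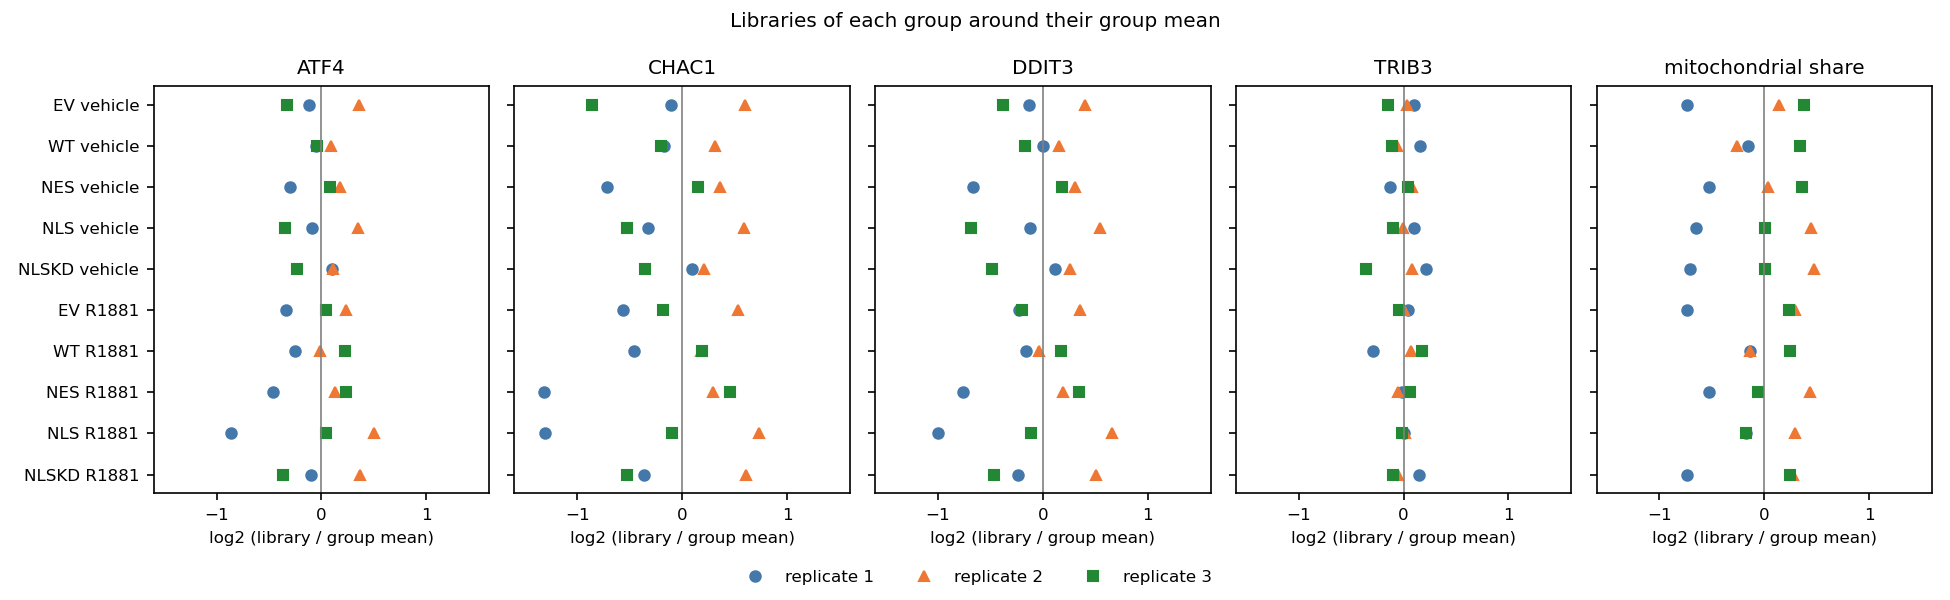
Log2 ratio of each library to the mean of its group (horizontal axis) for ATF4, CHAC1, DDIT3, TRIB3 and the share of mitochondrial counts, in the 10 groups (vertical axis), with a marker for each replicate number. Replicate 2 is the highest in ATF4, CHAC1 and DDIT3 in 8 of 10 groups, and TRIB3 stays close to 0.

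Other genes of the pathway were followed in 7 lists of 115 genes, 113 of them tested. The lists differed from each other. Of the 21 sensor kinase and eIF2 genes edgeR called none in NLS or NLSKD against EV under R1881 (4 and 1 had an unadjusted p under 0.05, and DESeq2 called 1 in each), and 1 was lower in NLS under vehicle: EIF2AK4, which encodes GCN2, at -0.75 ± 0.17 (edgeR adjusted p = 0.00754). Of the 15 genes of the ER unfolded protein response edgeR called none in any comparison between lines. At most 2 had an unadjusted p under 0.05 there, and DESeq2 called none. XBP1, listed among the bZIP partners, and HERPUD1, among other ATF4 targets, were outside that list. By edgeR XBP1 was called higher in NLSKD than EV (0.65 ± 0.15) and in NLS than NES (0.63 ± 0.15) under vehicle. It was also higher in NLSKD than NES under vehicle (0.92 ± 0.15) and R1881 (0.74 ± 0.15). HERPUD1 was called lower in NES than EV under vehicle (-0.58 ± 0.16) and higher in NLSKD than NES under R1881 (0.62 ± 0.16). Of 9 serine and one-carbon enzymes 3 were higher in each nuclear line than in EV under R1881: PSPH (0.68 ± 0.13 in both), MTHFD2 (0.82 ± 0.20 in NLS and 1.04 ± 0.20 in NLSKD) and MTHFD1L (0.55 ± 0.13 and 0.46 ± 0.13). In WT these 3 were at 0.31 ± 0.13, 0.55 ± 0.20 and 0.39 ± 0.13 (edgeR adjusted p = 0.144, 0.0985 and 0.0507), none called. In NES they were at -0.09, -0.21 and 0.12, also without a call. Of 18 aminoacyl-tRNA synthetases 2 were higher in NLS and 3 in NLSKD, with WARS at 0.50 ± 0.13 and 0.63 ± 0.13 and GARS at 0.58 ± 0.16 and 0.71 ± 0.16.

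The 11 tested amino acid transporters split. Under R1881 3 were higher and 1 lower in each nuclear line against EV. SLC1A4, a neutral amino acid carrier, was higher by 1.68 ± 0.26 in NLS and 1.73 ± 0.27 in NLSKD, and SLC6A9, a glycine carrier, by 1.04 ± 0.19 and 1.01 ± 0.19. SLC1A4 was also higher than in EV in WT (1.28 ± 0.26, adjusted p = 0.00182) and NES (1.03 ± 0.26, 0.0141) by edgeR, and SLC6A9 in WT (0.65 ± 0.19, 0.0312). SLC7A5, the large neutral amino acid carrier and a known ATF4 target, was lower, at -2.78 ± 0.30 and -2.81 ± 0.30 (edgeR adjusted p = 7.39e-07 and 7.31e-07). It was lower in WT (-3.81 ± 0.31) and NES (-4.11 ± 0.32) as well, at 107 ± 17.3 CPM in EV and 6.24 to 15.7 CPM in the means of the rescued lines. TRIB3 thus rose in the nuclear lines against EV while SLC7A5 fell, and between rescues under R1881 SLC7A5 was higher in NLS than NES (1.33 ± 0.29, adjusted p = 0.0147). SLC7A5 also fell with R1881 in all 5 lines, with log2 fold changes from -2.08 in NES to -0.87 in EV.

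Of 19 other ATF4 targets 4 were higher and 1 lower in each nuclear line against EV under R1881. CTH, which makes cysteine from cystathionine, was higher by 0.84 ± 0.16 in NLS and 1.01 ± 0.16 in NLSKD, and the lower gene was NDRG1 (-2.21 ± 0.33 in both). CTH was also higher in WT (0.66 ± 0.16), and NDRG1 lower in WT (-1.56 ± 0.32) and NES (-1.06 ± 0.32). Among 20 tested bZIP partners and feedback genes 1 was higher, the leucine sensor SESN2 (0.98 ± 0.23 in NLS and 1.14 ± 0.23 in NLSKD), and FOS (-2.18 ± 0.50 in NLS and -1.99 ± 0.50 in NLSKD) and MAFF (-1.39 ± 0.28 and -1.44 ± 0.29) were lower in both. TRIB1 was the third lower gene in NLS (-0.57 ± 0.16). FOS and MAFF were lower than in EV in WT (-3.02 ± 0.53 and -1.59 ± 0.29) and NES (-1.59 ± 0.48 and -1.52 ± 0.28) as well. TRIB1 was also called lower in WT (-0.74 ± 0.16) and NES (-0.61 ± 0.16). SESN2 was not called in WT (0.69 ± 0.23, edgeR adjusted p = 0.0624) or NES (0.10 ± 0.23). Over all 113 genes 13 were higher and 5 lower in NLS, and 14 higher and 4 lower in NLSKD. That is 15.9% of the lists in each, beside 6.17% and 5.66% of all tested genes. Under vehicle against EV 5 were higher and 4 lower in NLS (7.96%, beside 4.5%) and 8 and 4 in NLSKD (10.6%, beside 3.99%). WT had 1 and 6 under vehicle (6.19%, beside 6.67%) and NES 0 and 8 (7.08%, beside 4.92%). The lists were chosen with earlier results of these data known, so the shares here and below are no independent test. In WT against EV under R1881 the counts were 4 and 6 (8.85%, beside 8.43% of all genes) and in NES 1 and 8 (7.96%, beside 6.86%), both near the share over all genes.

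In NLS against NES under vehicle 16 of the 113 genes were called higher and none lower (14.2%, beside 1.01% of all genes). With R1881 11 were higher and none lower (9.73%, beside 1.37%). In NLSKD against NES, added after the results were seen, 14 were higher and none lower under vehicle (12.4%, beside 1.33%). With R1881 16 were higher and 1 lower (15%, beside 2.95%). Against WT the counts were smaller. NLS had 3 higher and none lower under vehicle (2.65%, beside 0.476%) and 0 called under R1881 (beside 0.454%). NLSKD against WT had 1 higher and none lower in each treatment (0.885%, beside 0.836% under vehicle and 0.847% under R1881). PCK2, the mitochondrial PEP carboxykinase, was higher in NLS than NES by 1.16 ± 0.21 under vehicle and 1.14 ± 0.21 under R1881. SARS was higher by 0.58 ± 0.13 and 0.80 ± 0.13, PSPH by 0.54 ± 0.13 and 0.78 ± 0.13, and SLC6A9 by 1.26 ± 0.19 and 1.04 ± 0.19. With R1881 against vehicle 6 were higher and 6 lower in EV (10.6%, beside 9.05% of all genes), 6 and 3 in WT (7.96%, beside 6.45%), 12 and 4 in NES (14.2%, beside 8.15%), and 3 and 2 in NLS and in NLSKD (4.42% each, beside 4.42% and 4.07%). Of the 15 ER unfolded protein response genes R1881 raised 5 in NES, 2 in WT and 1 in each of the other lines, and none was lower. The median log2 fold change of that list was 0.34 in EV and 0.41 to 0.57 in the rescued lines, beside -0.04 to 0.02 over all genes. ERN1, the sensor IRE1, was higher in EV (0.95 ± 0.30), WT (1.30 ± 0.30) and NES (1.31 ± 0.30), and MANF, a secreted ER stress protein, in the 4 rescued lines (0.72 to 0.87). NDRG1, which androgen is known to induce, rose in all 5 lines, by 2.19 to 3.78 on the log2 scale, and TRIB1, a pseudokinase related to TRIB3, fell in all 5, with log2 fold changes of -1.41 to -0.95.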

How the data were processed

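RNA-seq was read from 30 LNCaP libraries. For each of 58735 genes the authors deposited raw counts and, separately, FPKM, per the file headers. The submitters' processing notes name HISAT2 2.0.5, featureCounts 1.5.0-p3 and build hg38. The strand setting is not given in the sources used here. Gene positions in the files matched GENCODE release 29 for all of these genes.

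Counts were fitted in R 4.3.3 with edgeR 4.0.16 (glmQLFit and glmQLFTest, robust and two-sided, after filterByExpr and TMM), in a single unblocked model of the 10 group means over 30 libraries. Libraries of 1 group differed by more than counting noise, so each was counted as 1 sample; this does not show that they were separate cultures. The filter left 18296 genes, and p-values were adjusted over all of them within each of 29 comparisons. The standard error is the one the F statistic implies, and 95% intervals are 1.96 standard errors each way. CPM values are TMM-normalised. Depth was 21435364 to 61762468 counts per library, and members had from 50 to 20409 counts in a library. The files held 0 columns of other samples and no row without a gene. The fit was tested on simulated data.

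Replicate numbers are shared by all groups in the labels. Same-numbered libraries of 2 groups were taken as paired where every correlation of their deviations from the group means was over 0.1. This held in 11 of 25 comparisons of 2 groups (correlations over all of them from -0.28 to 0.64). The pairing comes from the data, since the labels do not say what a number marks. The replicate block was a single effect of the number, shared by all 10 groups in the fit. It is therefore not a paired test of the 2 groups compared.

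The 10 members are always named. Of each wider list up to 3 called genes per comparison were eligible by smallest adjusted p. Likeness was ranked by Pearson correlation over 10 group means of log2 CPM, 5 genes for ATF4 and 1 for each other member. The members and lists were chosen with earlier results of these data known, and 4 comparisons (NLSKD against WT and NES) were added after the results were seen. Alternatives were DESeq2 1.42.0, RLE factors, no filter on low counts, the replicate block, limma 3.58.1 on log2(FPKM + 1), fits of the compared groups only, and the omission of single libraries or of those over 9% mitochondrial counts.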

Additional observations from a re-analysis of the deposited data

How the results depend on the processing

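Each count below is the number of the 10 members called, and counts that changed by over 1.5 times, or from or to 0, are printed. The share of all genes called was not computed for the alternatives, so these counts have no such share beside them. Over 29 member calls and 13 alternatives each, 292 of 377 kept the call, 85 lost it and none reversed. Smaller changes came to 5 under DESeq2, 4 with no filter, 2 without the libraries over 9% mitochondrial counts, and 1 each under limma, the replicate block (NLSKD against NES under R1881, 4 to 6) and the compared groups only. RLE factors and limma on log2(FPKM + 1) each gave 1 for NES against EV under vehicle in place of 0. DESeq2 changed 9 by this measure: 0 to 1 for NES against EV under vehicle and NES against WT under R1881, 1 to 3 for NLS against EV under vehicle, 1 to 2 for NLSKD against EV under vehicle, NLS against WT under R1881 and NLSKD against WT in both treatments, 2 to 4 for NLS against WT under vehicle, and 4 to 7 for NLS against NES under vehicle. With no filter on low counts the androgen response went from 1 to 2 in EV and 0 to 1 in NLS, WT against EV and NES against EV under vehicle from 0 to 1, NLS against EV under vehicle from 1 to 3, NLSKD against EV under vehicle from 1 to 2, NLS against WT under vehicle from 2 to 5, and NLSKD against WT from 1 to 3 under vehicle and 1 to 2 under R1881. With the compared groups only the count was 0 for NLS against EV under R1881, NLS against NES in both treatments, NLS against WT under R1881 and NLSKD against WT under R1881, 1 for NLSKD against EV under R1881 and NLSKD against NES under vehicle, 2 for NLSKD against NES under R1881 and 6 for NLSKD against WT under vehicle; these fits rest on 6 libraries. Without the libraries over 9% mitochondrial counts it was 1 for NLS against NES under R1881 and for NLS against WT under vehicle, and 2 for NLS against NES and NLSKD against NES under vehicle. Other causes were not tested.

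The replicate block changed 14 counts by over 1.5 times. Where the numbers paired the libraries, it called 3 members in the androgen response of EV, 5 in NLS against EV under vehicle, 6 in each nuclear line against EV under R1881, and under R1881 2 in NLS against WT and 5 in NLS against NES. Where the libraries share only a number, it called 4 in NES against EV under vehicle, 1 in NES against WT under R1881, 2 in NLSKD against EV, 8 in NLS against NES, 5 in NLS against WT and 7 in NLSKD against NES under vehicle, and 3 and 2 in NLSKD against WT (vehicle, then R1881).

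With single libraries left out, counts ran from 0 to 1 for NES against EV under vehicle, 1 to 2 for NLS against EV under vehicle, 1 to 4 for NLS against EV under R1881, 2 to 3 for NLSKD against EV under R1881, 1 to 2 for NLS against WT under vehicle, 2 to 4 for NLS against NES in both treatments, 2 to 3 for NLSKD against NES under vehicle and 3 to 4 under R1881, and did not move elsewhere. ASNS and PPP1R15A, with the fewest counts, have the least depth behind their values.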
